A study of Capra hircus with 29 samples.

Results

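The subcortical maternal complex is a protein assembly that oocytes build during growth and keep below the cell membrane, and its genes are among the classical maternal-effect genes. NLRP5 (also called MATER) is its scaffold, OOEP (FLOPED) and KHDC3L (FILIA) carry KH-type domains, TLE6 belongs to the Groucho co-repressor family, and PADI6 belongs to the peptidylarginine deiminases and is needed for the cytoplasmic lattices of the oocyte. NLRP2 is a relative of NLRP5 that is also counted as a component. Loss of some of these genes in females lets eggs be fertilised while the embryos stop at early cleavage. Maternal variants of several of the 6 genes are known from human infertility, molar pregnancy and imprinting disorders.

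The members were the 6 genes NLRP5, OOEP, TLE6, KHDC3L, PADI6 and NLRP2, taken by symbol. Of the 21343 genes in the expression table, 5 of the 6 had a row, each with a symbol that no other row carried, and NLRP2 was not analysed here. The identifiers were ENSCHIG00000024113 for OOEP, ENSCHIG00000021014 for KHDC3L, ENSCHIG00000018660 for TLE6, ENSCHIG00000014830 for PADI6 and ENSCHIG00000022684 for NLRP5. In the ARS1.2 gene table of RefSeq, which matched 5 of the 6 symbols and not OOEP, NLRP5 lay beside NLRP8, and TLE6 lay beside TLE2.

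Expression was measured by RNA-seq in 29 oocyte samples of the Ji'ning grey goat, a domestic breed known for large litters. The animals came from a high fertility group with litters above 3 kids and a low fertility group with litters below 2 kids, and oocytes were sorted by the size of their follicle. These limits are those of the labels, and the methods of the study word both of them as inclusive. HLO, HMO and HSO stand for high fertility oocytes of large, medium and small follicles, and LLO, LMO and LSO for the same stages of the low fertility group. There were 5 samples in each group and 4 in HSO, which had the numbers 1, 3, 4 and 5. Ages of the goats were not given in the labels. By the study's methods, each sample was a small pool of oocytes taken from a common pool of a stage, a step that is described for high fertility oocytes. The goats that contributed to a given sample were not named, so p-values measured the spread between samples and not between animals. The methods describe mRNA enriched with oligo(dT) before sequencing, whereas the labels name total RNA. In such material less RNA of a gene and a shorter poly(A) tail cannot be told apart.

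Values were FPKM, fragment numbers scaled by gene length and library size. Levels of different genes were set side by side on this scale. How completely each gene model captured its transcript was not tested, which limits such comparisons. The sum of FPKM per sample ran from 222697 to 490048, the lowest being LMO 2 and the next 347806. LLO 2 and LLO 5 stood apart on the second principal component, which held 17.0% of the variance of all genes tested. Of 10 oocyte marker genes, 8 to 10 were above 0.5 FPKM in every sample, with summed levels from 426 to 9077 FPKM. NOBOX was above 0.5 FPKM in 8 samples, FIGLA in 28 and DAZL in 21, with a second gene of the symbol DAZL listed at 0 throughout. The granulosa marker list, with 10 of 12 genes in the table, summed to between 5.14 and 39.8 FPKM. Most of that was STAR, while AMH and AMHR2 were listed at 0 in all samples, FSHR did not pass 0.283 FPKM and LHCGR did not pass 0.0460 FPKM. Other genes of the list were above 0.5 FPKM in some samples. These were INHBA in 10 samples (up to 5.21 FPKM), FST in 5 (up to 1.54 FPKM), and INHA and CYP11A1 in 1 each (up to 0.782 and 0.517 FPKM). Theca and stroma markers, led by DCN and ACTA2, summed to between 5.32 and 43.4 FPKM, and leukocyte markers to between 0.0640 and 0.938 FPKM, with CD14 and TYROBP at 0 throughout.

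The complex genes differed widely in transcript level. OOEP was the most abundant, with a mean of 110 ± 63.2 FPKM (SD, n = 29), a level above that of 97.4% of the genes in the table. TLE6 followed at 7.53 ± 4.40 FPKM, KHDC3L at 6.79 ± 2.88 FPKM and PADI6 at 5.75 ± 4.73 FPKM. NLRP5, the scaffold of the complex, was the lowest at 0.303 ± 0.162 FPKM. It was above 0.5 FPKM in 5 of 29 samples and was listed at 0 in none. OOEP was the highest of the 5 genes in 28 samples, the exception being LMO 3 where KHDC3L was higher, and NLRP5 was the lowest in 29 of 29.

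The order of the levels was tested between neighbours on the log2(FPKM + 1) scale by a two-sided sign-flip permutation test over the 29 samples. It used 100000 resamples and Benjamini-Hochberg adjustment over 4 comparisons. Neighbours were picked by mean level in these same samples, so the p-values describe regularity over samples and do not test the order independently. OOEP exceeded TLE6 by 3.43 (95% interval 2.85 to 4.01) and was higher in 29 samples. PADI6 exceeded NLRP5 by 2.07 (1.73 to 2.41), also in 29 samples, and for both comparisons the permutation p was 2.0e-05, the smallest the resamples can give. The 3 genes in the middle were close to each other. TLE6 and KHDC3L differed by 0.09 (-0.28 to 0.45, permutation p = 0.672), with TLE6 higher in 14 samples. KHDC3L and PADI6 differed by 0.41 (0.00110 to 0.82), with KHDC3L higher in 19 samples, and the adjusted permutation p was 0.0669.

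**Figure D1:**
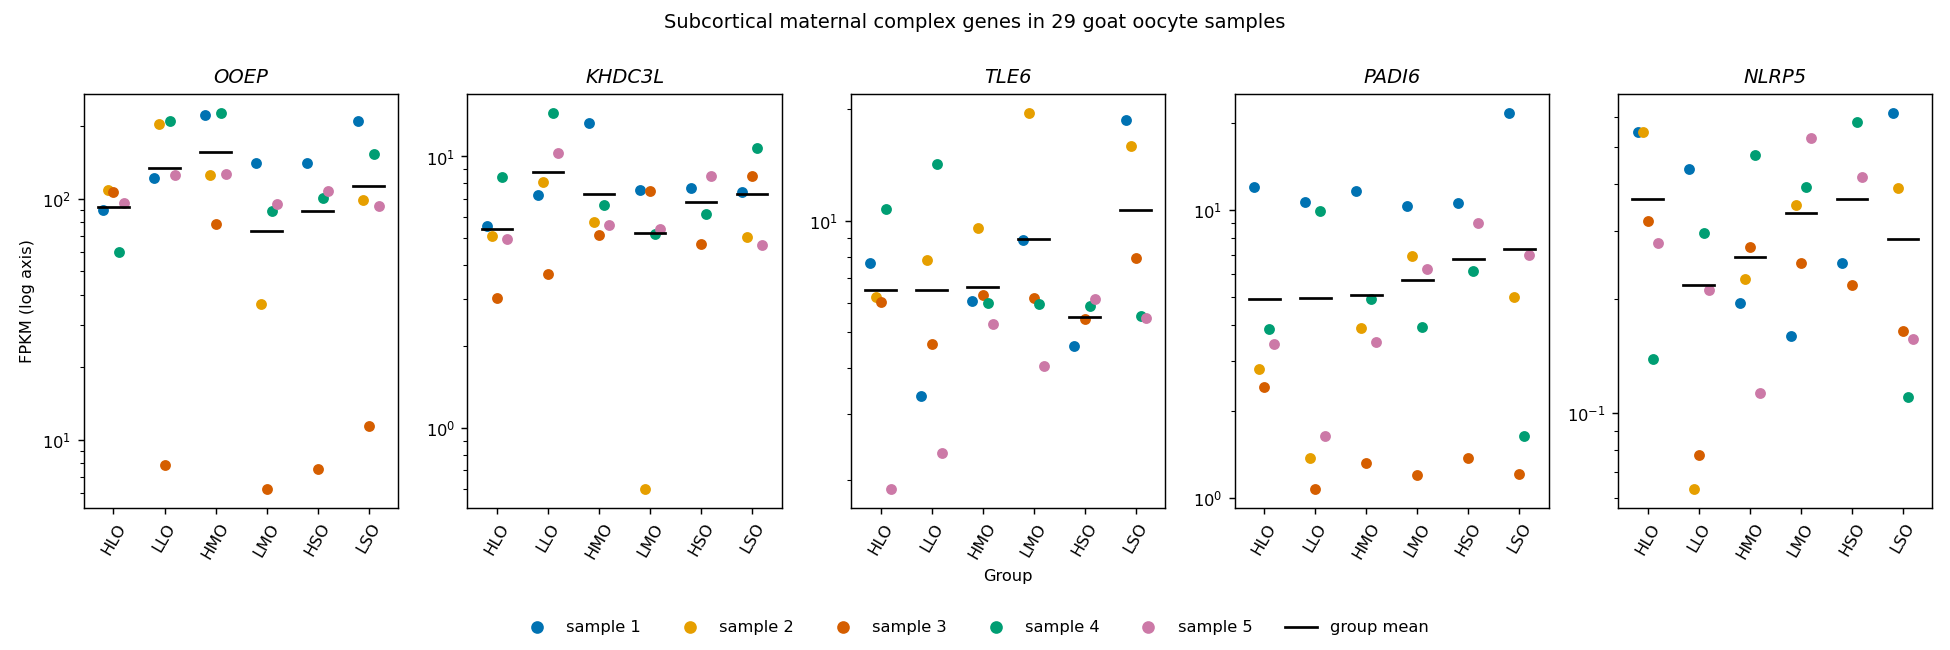
FPKM of the 5 complex genes with a row (log axes, a separate range in each panel) in each of the 29 samples, by group on the horizontal axis. Points are samples coloured by their number in the labels and black bars are group means; the samples of the fertility groups overlap for every gene, and in OOEP 4 samples with the number 3 lie between 6.24 and 11.4 FPKM.

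OOEP, an RNA-binding protein in the annotation of the table, is required for the complex to assemble. In HLO its values for samples 1 to 5 were 89.5, 109, 106, 59.8 and 95.8 FPKM, and in LLO they were 121, 204, 7.86, 209 and 125 FPKM. In HMO they were 222, 126, 78.3, 227 and 127 FPKM, and in LMO 140, 36.5, 6.24, 88.5 and 94.9 FPKM. HSO samples 1, 3, 4 and 5 had 140, 7.55, 101 and 107 FPKM, and LSO samples 1 to 5 had 210, 98.2, 11.4, 153 and 93.2 FPKM. Sample 3 was the lowest of its group in LLO, LMO, HSO and LSO, at 6.24 to 11.4 FPKM, and also in HMO at 78.3 FPKM, but not in HLO. All remaining samples held at least 36.5 FPKM. The ranges of the high and low fertility groups overlapped in each of the 3 stages.

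KHDC3L, which in women is linked to recurrent molar pregnancy, had the lowest coefficient of variation of the members over the 29 samples, 42.5%, beside 57.3% for OOEP and 82.2% for PADI6. HLO samples 1 to 5 had 5.53, 5.10, 3.02, 8.37 and 4.97 FPKM, and LLO samples 7.22, 8.02, 3.71, 14.5 and 10.3 FPKM. HMO samples had 13.3, 5.74, 5.13, 6.63 and 5.59 FPKM, and LMO samples 7.52, 0.597, 7.49, 5.20 and 5.42 FPKM. HSO samples 1, 3, 4 and 5 had 7.68, 4.78, 6.13 and 8.50 FPKM, and LSO samples 1 to 5 had 7.43, 5.05, 8.45, 10.8 and 4.73 FPKM. A single sample, LMO 2, fell below 1 FPKM, and the other 28 held 3.02 FPKM or more. Of the 4 samples low in OOEP, LLO 3 and HSO 3 were also the lowest of their groups in KHDC3L, whereas LMO 3 and LSO 3 were the second highest of theirs.

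TLE6, whose variants are known from human embryonic arrest, had its 4 highest values in low fertility samples. In HLO samples 1 to 5 it stood at 7.67, 6.24, 6.02, 10.8 and 1.88 FPKM, and in LLO at 3.35, 7.86, 4.65, 14.2 and 2.36 FPKM. In HMO it stood at 6.09, 9.54, 6.29, 6.01 and 5.26 FPKM, and in LMO at 8.85, 19.6, 6.19, 5.97 and 4.06 FPKM. HSO samples 1, 3, 4 and 5 had 4.60, 5.42, 5.88 and 6.15 FPKM, and LSO samples 1 to 5 had 18.7, 15.9, 7.93, 5.55 and 5.48 FPKM. The values above 15 FPKM were those of LMO 2, LSO 1 and LSO 2. The SD over samples was 2.09 FPKM in the 14 high fertility samples and 5.62 FPKM in the 15 low fertility samples, a difference in spread that was not tested.

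PADI6, the deiminase that the oocyte lattices require, followed the sample number. HLO samples 1 to 5 had 12.0, 2.82, 2.43, 3.87 and 3.43 FPKM, and LLO samples 10.7, 1.38, 1.07, 9.94 and 1.64 FPKM. HMO samples had 11.7, 3.90, 1.33, 4.92 and 3.48 FPKM, and LMO samples 10.3, 6.90, 1.21, 3.91 and 6.25 FPKM. HSO samples 1, 3, 4 and 5 had 10.6, 1.37, 6.16 and 9.03 FPKM, and LSO samples 1 to 5 had 21.7, 4.98, 1.21, 1.64 and 6.97 FPKM. Sample 1 was the highest and sample 3 the lowest in each of the 6 groups.

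NLRP5, the scaffold, was low in every group. It ranged from 0.139 to 0.546 FPKM in HLO (median 0.319) and from 0.0632 to 0.439 FPKM in LLO (median 0.211). It ranged from 0.113 to 0.475 FPKM in HMO (median 0.226) and from 0.159 to 0.527 FPKM in LMO (median 0.352). In HSO it ranged from 0.218 to 0.581 FPKM (median 0.332) and in LSO from 0.110 to 0.615 FPKM (median 0.165). These ranges overlapped among all 6 groups. NLRP5 did not pass the filter of 0.5 FPKM in at least 4 samples within a stage, and entered the main limma fits only over all samples. Within a stage it was compared by exact permutation tests.

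The comparison of high with low fertility oocytes asked whether the maternal complex differed between goats of large and small litters. No complex gene passed an adjusted p of 0.05 by limma's moderated test in any stage. In large follicles 0 of 4 members tested passed, beside 0.0% of 8328 genes. In medium follicles it was 0 of 4, beside 0.0715% of 8390 genes, and in small follicles 0 of 4, beside 0.0119% of 8376 genes. At an unadjusted p of 0.05, the count was 0 members in large follicles, 1 in medium and 0 in small, beside 4.14%, 8.67% and 4.41% of the genes. The samples of both groups did not separate for any member, beside 0.432%, 1.7% and 2.05% of genes whose groups did not overlap.

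The 1 member at an unadjusted p under 0.05 was OOEP in medium follicles. Its mean was 156 ± 65.6 FPKM in HMO and 73.3 ± 52.6 FPKM in LMO (SD, n = 5 each). The difference was 1.53 on the log2(FPKM + 1) scale (SE 0.70, 95% interval 0.00226 to 3.05), with a limma p of 0.0497 before and 0.576 after adjustment and an exact permutation p of 0.0794. The smallest exact p the design allows is 0.00794. Without LMO 3 the difference was 0.83. In large follicles OOEP differed by 0.02 (SE 0.77, -1.65 to 1.69) and in small follicles by -0.45 (SE 0.96, -2.57 to 1.68). Without HSO 3 the small-follicle difference was 0.49, and without LSO 3 it was -1.13, so 1 sample set its direction.

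For KHDC3L, TLE6 and PADI6 the intervals included 0 in every stage. KHDC3L differed by -0.55 in large (SE 0.42, -1.45 to 0.35), by 0.54 in medium follicles (SE 0.46, -0.46 to 1.53) and by -0.06 in small follicles (SE 0.32, -0.78 to 0.65). Without LMO 2 the medium-follicle difference of KHDC3L was 0.0982. TLE6 differed by 0.08 in large (SE 0.51, -1.01 to 1.18), -0.22 in medium (SE 0.37, -1.03 to 0.59) and -0.69 in small follicles (SE 0.40, -1.57 to 0.19). PADI6 differed by 0.23 in large (SE 0.59, -1.03 to 1.49), -0.17 in medium (SE 0.50, -1.26 to 0.91) and 0.21 in small follicles (SE 0.70, -1.33 to 1.75). The intervals of OOEP, TLE6 and PADI6 reached beyond 1 log2 unit on at least 1 side in each stage, so the precision for these genes was low. NLRP5, compared by exact permutation tests alone, gave p = 0.206, 0.373 and 0.508 in large, medium and small follicles. Over the other 4 members, the exact permutation p ranged from 0.0794 to 1.0 in the 3 stages.

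**Figure D2:**
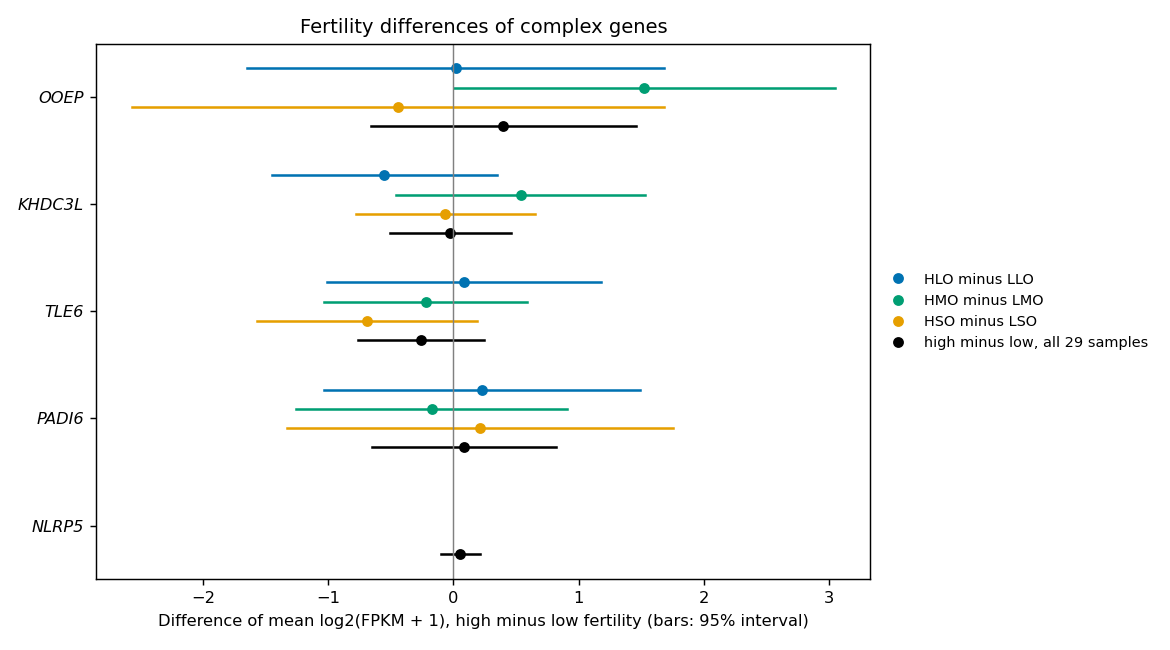
Difference of mean log2(FPKM + 1), high minus low fertility, for each complex gene (horizontal axis, points) with 95% intervals from limma's moderated test (bars), in large, medium and small follicles and over all 29 samples. Every interval includes 0 except that of OOEP in medium follicles, which starts at 0.00226 and belongs to a limma adjusted p of 0.576. NLRP5 entered these fits over all samples only.

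Over all samples, with the stage as a covariate, 0 of 5 members passed the adjusted threshold by limma, beside 0.0103% of 9692 genes, and 0 of 5 an unadjusted p of 0.05, beside 9.99%. The difference of high minus low fertility was 0.40 for OOEP (SE 0.52, -0.66 to 1.46) and -0.26 for TLE6 (SE 0.25, -0.77 to 0.25). Leaving out LMO 3 gave 0.13 for OOEP and leaving out HSO 3 gave 0.70, while without LMO 2 TLE6 gave -0.16. KHDC3L gave -0.03 (SE 0.24, -0.51 to 0.46), PADI6 0.08 (SE 0.36, -0.65 to 0.82) and NLRP5 0.06 (SE 0.08, -0.10 to 0.21). In FPKM, OOEP averaged 114 ± 57.0 in 14 high fertility samples and 107 ± 70.3 in 15 low fertility samples. The fertility difference was not shown to vary with the stage for any member. The interaction F-test of limma called 0 of 5 members after adjustment, beside 0.0% of genes, and 0 of 5 before it, beside 7.89%. Its unadjusted limma p ran from 0.159 for KHDC3L to 0.879 for PADI6.

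Follicle size, the second axis of the design, was not accompanied by a detectable change of the complex genes. OOEP averaged 113 ± 60.1 FPKM in large (n = 10), 115 ± 71.0 FPKM in medium (n = 10) and 102 ± 64.3 FPKM in small follicles (n = 9). KHDC3L averaged 7.07 ± 3.43, 6.26 ± 3.14 and 7.06 ± 2.05 FPKM in the same order. PADI6 averaged 4.92 ± 4.22, 5.39 ± 3.48 and 7.07 ± 6.45 FPKM. TLE6 averaged 6.50 ± 3.85, 7.78 ± 4.44 and 8.40 ± 5.18 FPKM, and NLRP5 0.292 ± 0.176, 0.296 ± 0.137 and 0.322 ± 0.187 FPKM. The means of TLE6, PADI6 and NLRP5 were lowest in large and highest in small follicles, by less than 1 SD in each case. The medians kept this order for PADI6 alone, at 3.12, 4.42 and 6.16 FPKM in large, medium and small follicles. They were lowest in small follicles for TLE6 (6.13, 6.14 and 5.88 FPKM) and NLRP5 (0.289, 0.261 and 0.247 FPKM).

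The F-test over stages of limma, with fertility as a covariate, called 0 of 5 members after adjustment, beside 0.0% of 9692 genes, and 0 of 5 before it, beside 1.66%. Their unadjusted limma p ran from 0.492 for TLE6 to 0.925 for NLRP5. The difference of large minus small follicles was -0.37 for PADI6 (SE 0.44, -1.27 to 0.54) and -0.34 for TLE6 (SE 0.31, -0.96 to 0.29) on the log2(FPKM + 1) scale. For KHDC3L it was -0.07 (SE 0.29, -0.66 to 0.53), for NLRP5 -0.04 (SE 0.09, -0.23 to 0.16) and for OOEP 0.31 (SE 0.64, -0.995 to 1.62). The interval of OOEP was wide and reached 1 log2 unit upwards and nearly 1 downwards.

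The samples carry the numbers 1 to 5 in every group, and what a number marks is not given in the labels. Levels of PADI6 and OOEP differed most between the numbers. Of the sum of squares of log2(FPKM + 1) over the 29 samples, the number took up 71.1% for PADI6, 59.5% for OOEP, 38.7% for TLE6, 26.4% for KHDC3L and 9.87% for NLRP5, beside a median of 33.8% over all genes tested. Stage took up 0.621 to 5.55% and fertility 0.0760 to 4.29% for the 5 members, beside medians of 3.38% and 2.54% over all genes tested. A factor with more levels takes up a larger share by chance, so the shares of number, stage and fertility are not on equal terms. By limma's F-test with the 6 groups as covariates, 3 of 5 members passed the adjusted threshold, beside 50.5% of 9692 genes, and the same 3 had an unadjusted p under 0.05, beside 58.0%, so that their share was near that of genes in general.

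PADI6 gave F = 14.0 (limma adjusted p = 9.6e-05). Its mean was 12.8 ± 4.42 FPKM in the samples numbered 1 and 1.44 ± 0.499 FPKM in those numbered 3 (SD, n = 6 each), with 3.996 ± 2.10, 5.08 ± 2.81 and 5.13 ± 2.74 FPKM in numbers 2, 4 and 5. The lowest sample numbered 1 held 10.3 FPKM and the highest of all others, LLO 4, held 9.94 FPKM. After median-of-ratios scaling the number 1 samples remained above the others, at 9.18 FPKM or more against at most 8.01 FPKM. OOEP gave F = 11.2 (limma adjusted p = 0.000281), with 36.3 ± 44.4 FPKM in number 3 and means from 107 to 154 FPKM in the other numbers. After the same scaling, the 4 low samples of OOEP held 8.95 to 13.7 FPKM and all others at least 42.3 FPKM. The samples also differed as a whole by number. Genes above 0.5 FPKM ran from 8047 to 8450 in number 1 and from 6806 to 7513 in number 3. In numbers 2, 4 and 5 they ran from 6646 to 7527, 7251 to 8689 and 7699 to 8452. The first principal component held 39.0% of the variance, at -54.7 to -31.6 in number 3 and -5.43 to 51.2 in number 1. The part of this in the levels of PADI6 and OOEP was not tested.

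TLE6 gave F = 3.78 (limma adjusted p = 0.0345), with the highest mean in number 2, 11.8 ± 5.67 FPKM (n = 5), and the lowest in number 5, 4.20 ± 1.75 FPKM (n = 6). It lost this call when HLO 5, HMO 2, LLO 5, LMO 2, LMO 5, LSO 2 or LSO 5 was left out, with limma adjusted p from 0.0518 to 0.104, and without LMO 2, LLO 2 and LLO 5 together the adjusted p was 0.204. With no filter on low genes it was 0.0586. KHDC3L (limma adjusted p = 0.137) and NLRP5 (adjusted p = 0.744) did not pass. Within the low fertility samples alone PADI6 and OOEP passed (limma adjusted p = 0.0395 and 0.00119). Within the high fertility samples alone PADI6 passed and OOEP did not, with an adjusted p of 0.202, and the difference between the fertility groups was not tested.

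Sums of marker genes were set beside the numbers, with no test. Oocyte markers summed to 819 to 1443 FPKM in the samples numbered 3, to 2418 to 3567 FPKM in those numbered 1 and to 426 to 9077 FPKM in numbers 2, 4 and 5, which spanned both. Theca and stroma markers summed to 5.70 to 9.10 FPKM in number 3 (median 7.66) and to 5.32 to 33.0 FPKM in number 1 (median 20.8). In number 5 they summed to 19.1 to 43.4 FPKM (median 27.3), and their medians in numbers 2 and 4 were 7.74 and 11.9 FPKM. The granulosa list summed to 10.3 to 24.9 FPKM in number 3 (median 19.4) and to 5.14 to 30.5 FPKM in number 1 (median 14.4). Over all 29 samples AMH and AMHR2 were at 0, while INHBA was above 0.5 FPKM in 10. Their part in the levels of PADI6 and OOEP was not tested.

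**Figure D3:**
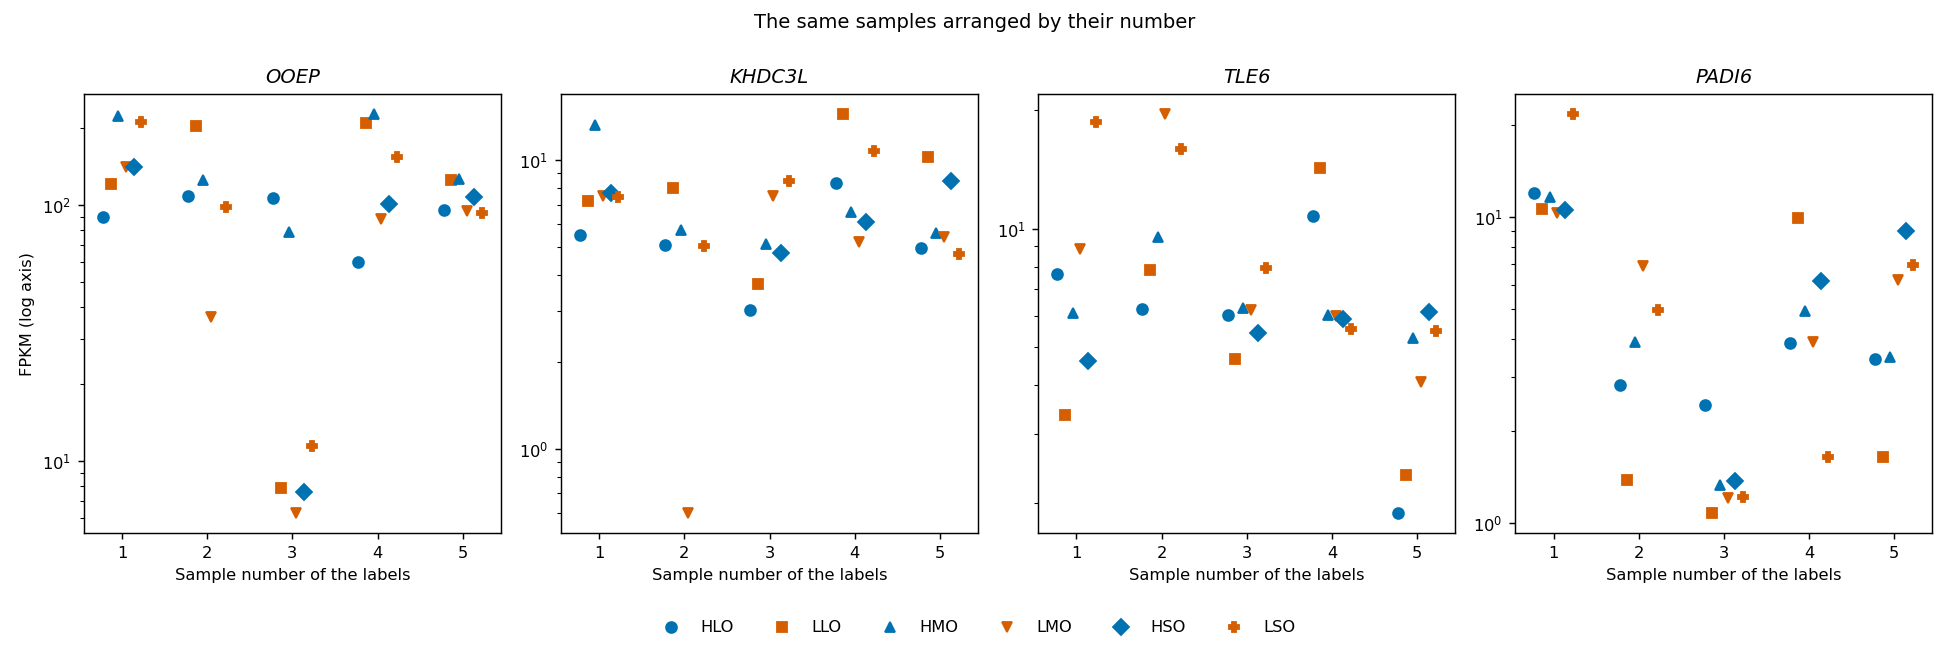
FPKM of OOEP, KHDC3L, TLE6 and PADI6 (log axes) in the 29 samples by the number of the sample in the labels, with 1 symbol per group (blue, high fertility; orange, low fertility). The 6 samples numbered 1 are the highest for PADI6 at 10.3 to 21.7 FPKM, and the 6 numbered 3 include the 4 lowest samples of OOEP.

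Correlation was uneven among the pairs of members. Of 10 pairs correlated on log2(FPKM + 1) over the 29 samples, 2 passed a permutation test adjusted over the pairs by Pearson's r and 3 by Spearman's rho. The share that passes among pairs of all genes was not computed, so the counts say nothing particular to the members. The permutation moved samples freely over groups and numbers. OOEP and PADI6 had r = 0.55 (adjusted permutation p = 0.0127) and rho = 0.46 (adjusted p = 0.0415). Without the 2 samples farthest from the median of OOEP, r was 0.45, and after group and sample number were removed it was 0.15, so this relation did not hold within numbers. NLRP5 and PADI6 had r = 0.51 (adjusted permutation p = 0.0231) and rho = 0.47 (adjusted p = 0.0415). It was 0.43 without the 2 samples farthest from the median of NLRP5 and 0.51 within groups and numbers. OOEP and KHDC3L passed by rank alone, with rho = 0.52 (adjusted permutation p = 0.0373) and r = 0.33 (adjusted p = 0.218), and r was 0.43 without 2 samples and 0.11 within groups and numbers. TLE6 and PADI6 had r = 0.32 (adjusted permutation p = 0.218) and rho = 0.17 (adjusted p = 0.611) in the pooled samples and r = 0.70 within groups and numbers, a value given as a description.

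For each member the 3 genes with the highest Pearson r on log2(FPKM + 1) over the 29 samples were taken. They came from the genes tested over all samples, after members, genes without a symbol and LOC symbols had been left out. Genes so left out may correlate more strongly and are not given here. Since the 3 genes were chosen for their r, no p is given. OOEP ran with MRPL20, a mitochondrial ribosomal protein (r = 0.93, 0.89 after group and number were removed), CUTA (r = 0.92 and 0.84) and ANAPC11, a subunit of the anaphase promoting complex (r = 0.92 and 0.77). The 4 samples low in OOEP were the 4 lowest in each of these genes. MRPL20 held 34.4, 51.0, 123 and 229 FPKM in LLO 3, LMO 3, HSO 3 and LSO 3, and 249 to 1289 FPKM elsewhere. CUTA held 1.79, 2.37, 13.0 and 19.7 FPKM in them, and 25.7 to 144 FPKM elsewhere. Spearman's rho with OOEP was lower than r for all 3 genes, at 0.74, 0.67 and 0.82.

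PADI6 ran with BNIP3, a mitochondrial BCL2 family protein (r = 0.95, 0.84 after removal of group and number, rho = 0.96), with NANS, an enzyme of sialic acid synthesis (0.93, 0.86 and 0.94), and with TMEM219 (0.91, 0.70 and 0.91), whose symbol 2 genes carry, so its level is uncertain. BNIP3 stood at 15.3 FPKM in LSO 1, the sample with the highest PADI6, and was listed at 0 in LLO 3, the sample with the lowest. TLE6 ran with PGS1, a synthase of cardiolipin precursors (0.91, 0.87 and 0.78), SDHB, a subunit of succinate dehydrogenase whose symbol is also on 2 genes (0.89, 0.84 and 0.88), and ARID3B (0.89, 0.87 and 0.73). PGS1 was highest in LMO 2 at 55.4 FPKM, which was also the highest sample of TLE6.

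KHDC3L and NLRP5 had weaker counterparts. The genes most like KHDC3L were ARL14EP (r = 0.76), TMEM107 (0.74) and GPX8 (0.73). Without the 2 samples farthest from the median of KHDC3L these fell to 0.52, 0.47 and 0.45. For NLRP5 they were DUSP23 (r = 0.63), ODF2 (0.61) and NDUFV1 (0.60), genes with mean levels of 1.05, 1.22 and 0.968 FPKM. For OOEP, TLE6 and PADI6 the same omission left r at 0.83 or more for each of the 3 genes.

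**Figure D4:**
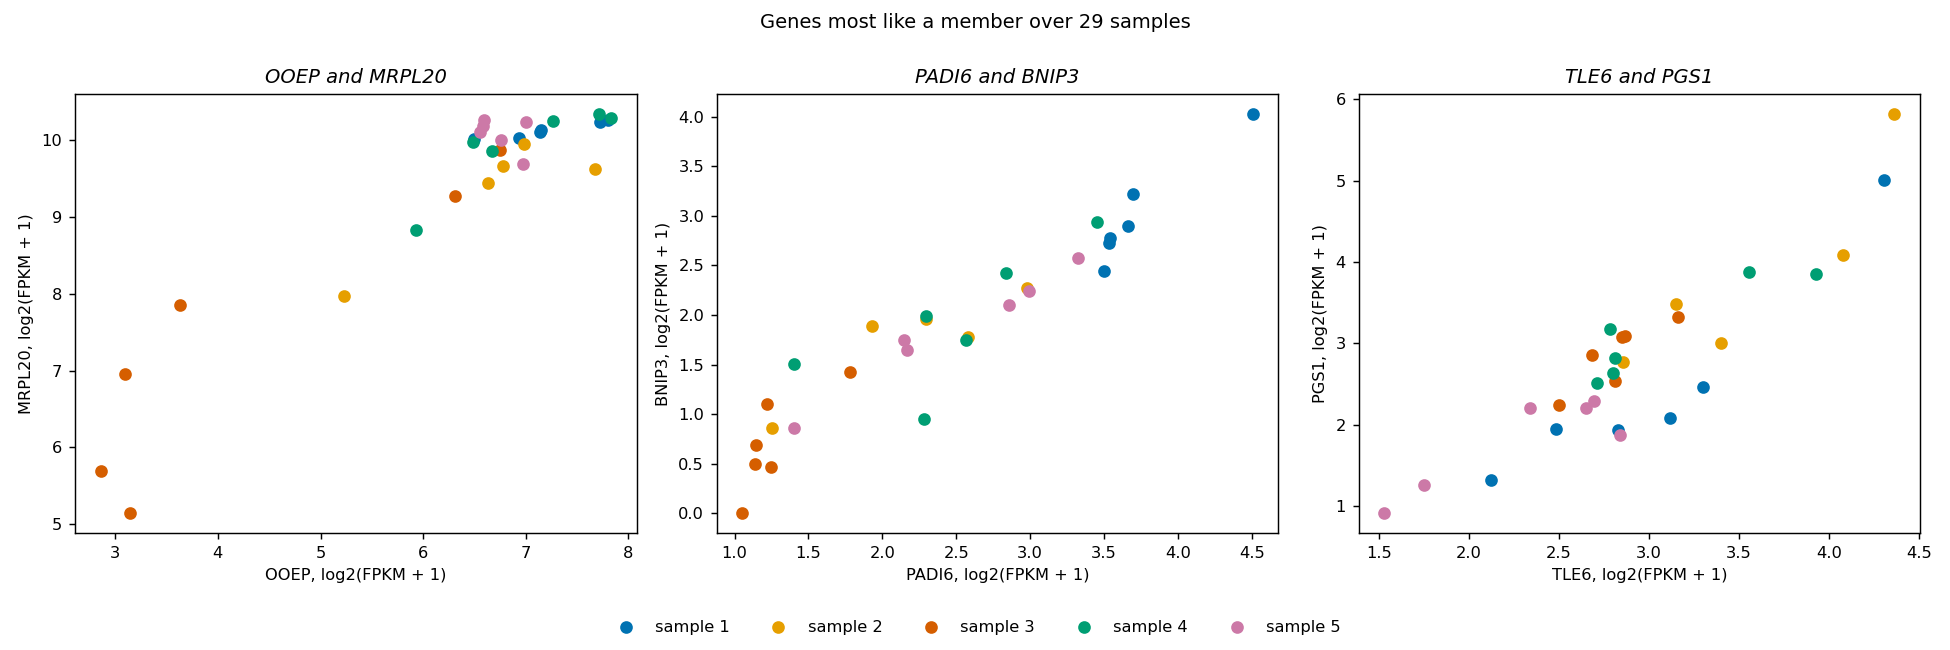
Levels of OOEP, PADI6 and TLE6 (horizontal axes) against MRPL20, BNIP3 and PGS1 (vertical axes), all as log2(FPKM + 1) and coloured by sample number. Each is the gene most like the member over the 29 samples, with members, genes without a symbol and LOC symbols left out. Pearson's r is 0.93, 0.95 and 0.91; in the first panel 4 samples numbered 3 lie apart from the rest at the low end.

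Relatives of the members were compared by level. Of 12 NLRP genes listed beside the members, 5 had a row. NLRP9 and NLRP14, both known from oocytes, were at 51.1 ± 22.2 FPKM (8.70 to 118) and 24.3 ± 8.05 FPKM (12.9 to 43.3), far above NLRP5 at 0.303 FPKM. The inflammasome genes NLRP1, NLRP3 and NLRP12 did not pass 0.157 FPKM in any sample. A gene outside the list, LOC102188793, described in the table as NACHT, LRR and PYD domains-containing protein 7, was named after its values were seen and stood at 39.0 ± 34.8 FPKM (2.35 to 138).

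In the Groucho family TLE7, also named after its values were seen, stood at 58.1 ± 39.5 FPKM (23.2 to 202), above TLE6 in mean level. TLE4 stood at 4.87 ± 2.42 FPKM and TLE1 at 0.839 ± 0.414 FPKM, and TLE2, TLE3 and AES had means of 0.131 FPKM or less. PADI6 was the highest of the deiminases with a row. PADI2 stood at 0.547 ± 0.387 FPKM, PADI3 at 0.320 ± 0.147 FPKM and PADI1 at 0.0669 ± 0.0674 FPKM.

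**Figure D5:**
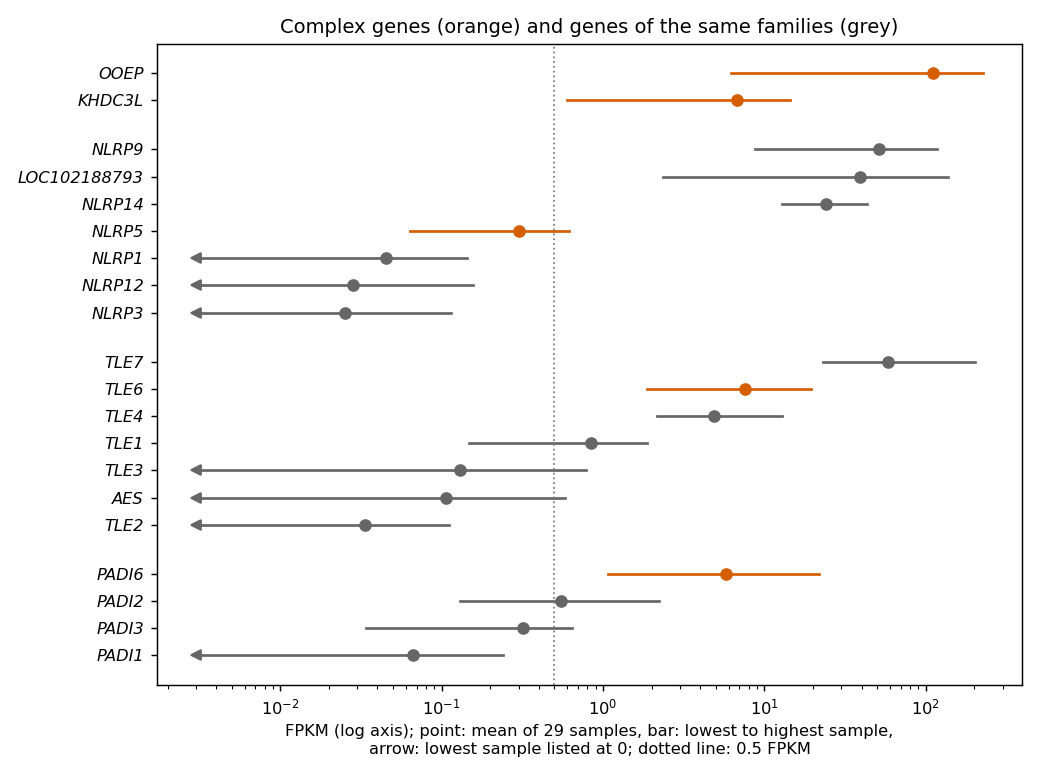
Mean FPKM over 29 samples (points) and the lowest to highest sample (bars) of complex genes (orange) and of genes of the same families with a row (grey), on a log axis with a dotted line at 0.5 FPKM. Arrows mark genes listed at 0 in at least 1 sample; NLRP5 at 0.303 FPKM lies below NLRP9, LOC102188793 and NLRP14 and above NLRP1, NLRP12 and NLRP3.

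Transcripts of proteins known to bind the complex or the lattices ranged widely in level. Of 14 such genes 13 had a row. UBE2D3, a ubiquitin-conjugating enzyme, reached 1627 ± 652 FPKM in the largest of 5 genes with that symbol, which makes its level uncertain. The tubulin TUBA1C stood at 105 ± 46.0 FPKM, the maintenance DNA methyltransferase DNMT1 at 81.3 ± 76.0 FPKM and UHRF1, which guides DNMT1 and is held in the cytoplasm of oocytes, at 57.2 ± 38.8 FPKM. SPIN1 and YBX2 were low, at 1.29 ± 1.22 FPKM in the higher of 2 genes with the symbol SPIN1 and 0.576 ± 0.520 FPKM for YBX2. ZBED3, which has been described as a member of the complex, did not exceed 0.449 FPKM.

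The partners tested were 13 rows of 12 symbols, UBE2D3 with 2 rows and ZBED3 with none, and 0 of them passed an adjusted p of 0.05 by limma in a fertility, stage or interaction comparison. At an unadjusted p of 0.05 it was 0, 0 and 1 rows in large, medium and small follicles, beside 4.14%, 8.67% and 4.41% of all genes, and 3 over all samples, beside 9.99%. In the test of stage it was 1, SPIN1 (limma adjusted p = 0.999983), beside 1.66%, and in that of the interaction 0, beside 7.89%. Their median difference was -0.01, -0.08 and -0.18 in the 3 stages, beside -0.09, -0.07 and -0.01 over all genes tested. UBE2D1, with a second gene of that symbol listed at 0, was the 1 gene in small follicles, at -0.92 (limma adjusted p = 0.880). TUBB4B (0.91), DNMT1 (-0.56) and NLRP14 (-0.36) were the 3 over all samples, with adjusted p of 0.452, 0.476 and 0.5001. By sample number, 6 of 13 passed, beside 50.5% of all genes.

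The related families held few genes that could be tested. Of the NLRP relatives 2 were tested, and 0 passed after adjustment in any comparison. NLRP9 had differences of 1.01 in large, -0.68 in medium and -0.30 in small follicles, with an interaction p of 0.0111 before and 0.396 after adjustment by limma, where 7.89% of all genes passed before adjustment. Of the KH, TLE and PADI relatives 2 were tested in large and 3 in the other comparisons. After adjustment 0 passed in a fertility, stage or interaction comparison. By sample number 1 of 3 passed, TLE1 (limma adjusted p = 0.0155), beside 50.5% of all genes. TLE4 (-0.64, limma adjusted p = 0.571) and PADI2 (-0.50, adjusted p = 0.525) had an unadjusted p under 0.05 between HMO and LMO, 2 of 3 beside 8.67% of all genes. Before adjustment TLE4 also passed over all samples (-0.48, limma adjusted p = 0.434), where 9.99% of all genes did, and PADI2 in the interaction (limma adjusted p = 0.565), where 7.89% did.

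Other maternal-effect genes gave the setting of the complex in the transcriptome. Of 20 listed genes 18 had a row. BTG4, which directs clearance of maternal mRNA, stood at 1171 ± 659 FPKM, the histone chaperone NPM2 at 971 ± 351 FPKM, the growth factors GDF9 and BMP15 at 312 ± 227 and 152 ± 56.4 FPKM, ACCSL at 277 ± 131 FPKM and ZAR1L and ZAR1, which store maternal mRNA, at 119 ± 76.1 and 81.3 ± 45.5 FPKM. OOEP thus lay within the range of this list. The other 4 members lay below these 7 genes in mean level, but within the range of the whole list. Its lower genes included ATG5 at 22.9, FIGLA at 9.55, TRIM28 at 3.59, AGO2 at 0.846 and TET3 at 0.101 FPKM. After adjustment 0 genes of the list passed by limma in a fertility, stage or interaction comparison. Before adjustment it was 0 in each single stage and 3 of 15 over all samples, beside 9.99% of all genes. All 3 were lower in high fertility, as were 639 of the 968 genes called in this way among all genes. These were AGO2 (-0.37), SMARCA4 (-0.37) and ACCSL (-0.48), with adjusted p of 0.423, 0.486 and 0.468. By sample number, 10 of 15 passed, beside 50.5% of all genes, GDF9 among them (limma adjusted p = 7.4e-05).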

How the data were processed

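The authors aligned the reads of each oocyte sample to the goat genome, retained uniquely matching reads that had fewer than 5 mismatches, and took out duplicates (picard). The deposited FPKM per gene were then made by Cufflinks 2.2.1 on Ensembl gene models. The aligner version and the genome build were not given in the sources used here. FPKM are not counts, so the depth behind each value is unknown and no counting interval is given. Table columns were matched to the sample titles, and 1 column without a matching title was left out. Symbols and descriptions came from the table.

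Values were analysed as log2(FPKM + 1), where a fold change understates the change of low genes. A gene entered a fit when at least 4 of its samples exceeded 0.5 FPKM, and was tested with limma 3.58.1 in R 4.3.3 (moderated tests with a trend, Benjamini-Hochberg adjustment over all genes, threshold 0.05), checked on simulated data. Exact permutation tests over samples were two-sided. Outlying samples were sought with Dixon's test. Python 3.11.15, numpy 2.4.6, pandas 2.3.3, scipy 1.17.1 and matplotlib 3.10.9 were used. Members, lists, tests and alternatives were chosen with earlier results of these data known. Named genes were every member and the 3 most correlated genes of each member, with members, genes without a symbol and LOC symbols left out. List genes past the adjusted threshold and the most abundant genes of each list (up to 5) were also named. Other list genes named in the text, and genes outside the lists, were added after their values were seen. Alternatives were other pseudocounts (0.1 and 0.5), no filter or 1 FPKM, array weights, quantile normalization, median-of-ratios factors, 1 fit over all samples, a replicate block and each sample left out. The omission of 3 samples that stand apart, fits of the sample number within fertility groups or with a sample left out, and other pseudocounts in the order of levels were added after seeing the data.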

Additional observations from a re-analysis of the deposited data

Results flagged for a closer look

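Within groups of 4 or 5 samples, the gap of the highest or lowest sample to its neighbour on log2(FPKM + 1) was set against Dixon's critical value, and 6 of 30 combinations of gene and group passed it, where chance passes about 1 in 20. That was 20.0% of the combinations, beside 6.55% of 57971 combinations over all genes tested; the members share their samples, and the difference was not tested. OOEP was far below its group in HSO 3, at 7.55 FPKM against 101 to 140 FPKM in the other samples. It was likewise low in LLO 3, at 7.86 FPKM against 121 to 209 FPKM, and in LSO 3, at 11.4 FPKM against 93.2 to 210 FPKM. KHDC3L was far above its group in HMO 1, at 13.3 FPKM against 5.13 to 6.63 FPKM. It was far below its group in LMO 2, the sample with the lowest FPKM sum, at 0.597 FPKM against 5.20 to 7.52 FPKM. PADI6 was far above its group in HLO 1, at 12.0 FPKM against 2.43 to 3.87 FPKM.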

How the results depend on the processing

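The count of members past the adjusted threshold stayed at 0 in the fertility, stage and interaction comparisons under every alternative run. By sample number it was 3, between 2 and 3 with each sample left out, 2 with no filter (TLE6 at a limma adjusted p of 0.0586), and 1 in the high fertility samples alone; the cause was not tested. Several fertility differences of the members changed sign on the log2(FPKM + 1) scale; the cause was not tested. For HLO and LLO, OOEP gave -0.14 after quantile normalization, PADI6 -0.26 with array weights, and PADI6 -0.31 and TLE6 -0.0757 without the 3 samples that stand apart. For HMO and LMO, TLE6 gave 0.17 with array weights and 0.0872 without those samples, and for HSO and LSO, OOEP gave 0.37 with array weights. Over all samples, KHDC3L gave 0.0205 with a pseudocount of 0.1, 0.0695 with median-of-ratios factors, 0.0337 after quantile normalization and 0.00406 with array weights, TLE6 gave 0.0605 and PADI6 -0.15 with array weights, and PADI6 gave -0.0428 without the 3 samples. With each sample left out in turn, the HLO and LLO difference ran from -0.82 to 0.33 for OOEP, -0.15 to 0.40 for TLE6 and -0.10 to 0.58 for PADI6. The HMO and LMO difference ran from 0.0982 (without LMO 2) to 0.70 for KHDC3L, -0.42 to 0.0872 for TLE6 and -0.53 to 0.12 for PADI6. The HSO and LSO difference ran from -1.13 to 0.49 for OOEP, -0.18 to 0.0748 for KHDC3L and -0.13 to 0.71 for PADI6. Over all samples it ran from 0.13 to 0.70 for OOEP, -0.19 to 0.0579 for KHDC3L and -0.0285 to 0.22 for PADI6. Between KHDC3L and PADI6 the order of levels passed without the 3 samples (adjusted permutation p = 0.0457).

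The labels do not say that a number pairs samples. Of 14 same-numbered pairs in the fertility comparisons 10 correlated above 0.1, from -0.48 to 0.71. Of 28 samples, 15 correlated best with their own number, and the count to be had by chance was not computed. The main fits did not take the numbers as pairs, so their standard errors include variation between numbers. With a replicate block 0 members passed in every fertility, stage and interaction comparison, OOEP in medium follicles reaching a limma adjusted p of 0.109. Over all genes the block gave 127 calls in place of 6 for HMO and LMO, 70 in place of 0 for the interaction, 1 in place of 0 for HLO and LLO and 0 in place of 1 for HSO and LSO. Depth was not known per value, and NLRP5 near 0.303 FPKM did not pass the filter of the main limma fits within a stage.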
